A study of Mus musculus with 42 samples.

Results

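RNA polymerase II (Pol II) on genes was compared between untreated bone marrow-derived macrophages (BMDMs) that lacked Nur77 (KO) and wild-type (WT) BMDMs, in 3 KO and 3 WT ChIP-seq libraries (sequencing of immunoprecipitated chromatin) out of the 42 samples of the series. Members were the samples titled as untreated Pol II libraries, and a gene's Pol II value was the deposited normalized tags (tags scaled to the same library total of 10 M) of the Pol II regions lying from 500 bp before the gene to 500 bp past it. Of 21884 protein-coding genes, 13219 had a value above 0 in at least 2 of the 3 libraries of a genotype and were tested. The comparison asks what differs on genes before the cells meet lipopolysaccharide (LPS), the bacterial stimulus that the rest of the series applies for 1 or 18 h.

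Both groups were BMDMs from male mice of 6 to 12 weeks, grown for 7 days in medium conditioned by L929 cells and harvested at 0 h without LPS. The KO mice lacked Nr4a1, the gene of Nur77, in the whole body after a loxP-flanked allele was removed by Cre driven from the CMV promoter. The study's methods give C57Bl6/J as the strain of the mice with Cre and name no strain for those with the loxP-flanked allele. According to the study's methods Cre was then bred out and WT littermates were used, whereas the KO genotype label reads only "cre". The study's methods call its ChIP-seq replicates biological where they describe the merging of peaks, but the labels do not state whether the 3 libraries of a genotype came from separate mice or separate cultures, so the p-values below measure the spread between these libraries and not a stated spread between mice.

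Pol II transcribes protein-coding genes. After it is loaded at a promoter it commonly pauses a short way into the gene and is then released into elongation, so Pol II summed over a gene reflects both the polymerase held near the start and the polymerase moving through the body. Nur77 is an orphan nuclear receptor of the NR4A family. It is itself an immediate-early gene that inflammatory stimuli induce in macrophages, it binds the NBRE sequence as a monomer, and it is known for restraining inflammatory gene expression. AP-1 factors are dimers of the Jun, Fos, Atf and related families that bind TGANTCA-like sites.

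The 6 libraries held 25.3 to 36.1 M tags and 54088 to 57861 regions, and 12982 to 13124 genes per library had a value above 0, with no difference in that number between genotypes that the exact two-sided permutation test could show (p = 0.60, where 0.10 is the smallest p that 3 against 3 libraries allow). Across genes the libraries of a genotype correlated at 0.986 to 0.989, and those of different genotypes at 0.978 to 0.980. WT replicate 1 stood apart in 1 respect. It had 61.6% of its tags inside regions, against 70.4% to 71.9% in the other 5 libraries. Macrophage markers were present in both genotypes, with summed values of 33547 to 35194 normalized tags in the KO and 30341 to 35688 in the WT over 12 of 12 markers, and only Mertk among them passed the test. Of the markers of other cells, those of T cells (Cd3e, Cd3g and Cd8a), of B cells (Pax5), of neutrophils (Ly6g, S100a9, Mpo and Elane), of stroma (Col1a1, Col1a2, Col3a1 and Pdgfra) and of mast cells (Cpa3, Mcpt8 and Ms4a2) were listed at 0 in all 6 libraries, but others of the same lists had values. The T cell genes Lck and Cd4 summed to 75.2 to 104 normalized tags in the KO and 93.3 to 107 in the WT, the B cell genes Cd79a and Ms4a1 to 123 to 161 and 100.4 to 159, the dendritic cell genes Flt3, Zbtb46 and Xcr1 to 295 to 323 and 258 to 337, and Pecam1 of the stroma list stood at 167 to 199 and 185 to 231. None of these 8 genes passed the test, and Cd4, with 15.4, 31.3 and 9.27 in the KO and 36.4, 31.3 and 32.4 in the WT, had the lowest adjusted p among them (0.069). Of the neutrophil list S100a8 passed, with 43.0, 39.3 and 45.3 normalized tags in the KO and 15.4, 16.6 and 15.9 in the WT (adjusted p = 0.0019), and Camp, listed at 0 in the KO and at 7.06, 5.96 and 0 in the WT, did not (adjusted p = 0.28). The part of such cells in the other results was not tested.

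Most genes carried much the same Pol II in both genotypes. The change was under 0.5 on the log2 scale for 92.7% of the tested genes, and the median over all genes was 0.04. In limma with Benjamini-Hochberg adjustment over all tested genes, 911 genes (6.89%) passed an adjusted p of 0.05, of which 552 (4.18%) were higher and 359 (2.72%) lower in the KO. The balance between higher and lower calls depended on scaling and on 1 library. Of all calls 60.6% were higher here, 50.1% after quantile normalization and 41.4% without WT replicate 1, which left 823 calls. Over 2-fold, 157 genes (1.19%) passed, 77 higher (0.582%) and 80 lower (0.605%). In 153 of these 157 genes the 3 KO and the 3 WT values did not overlap, which held for 21.1% of all tested genes. Input libraries, which had no immunoprecipitation, also held regions at many genes. The changes were therefore read again without the Pol II regions that overlap an input region. This setting keeps only 5.92% to 7.19% of the tags of a library. Where the direction of a called change named below turned, its value there is given beside the gene as the value without input regions. For Fads2 that value is given only in the section on how the results depend on the processing. Large changes were more frequent among genes with little Pol II. When genes were split by mean value into 3 equal classes, 2.27% of the lowest class changed over 2-fold, against 0.749% of the middle and 0.545% of the highest.

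**Figure D1:**
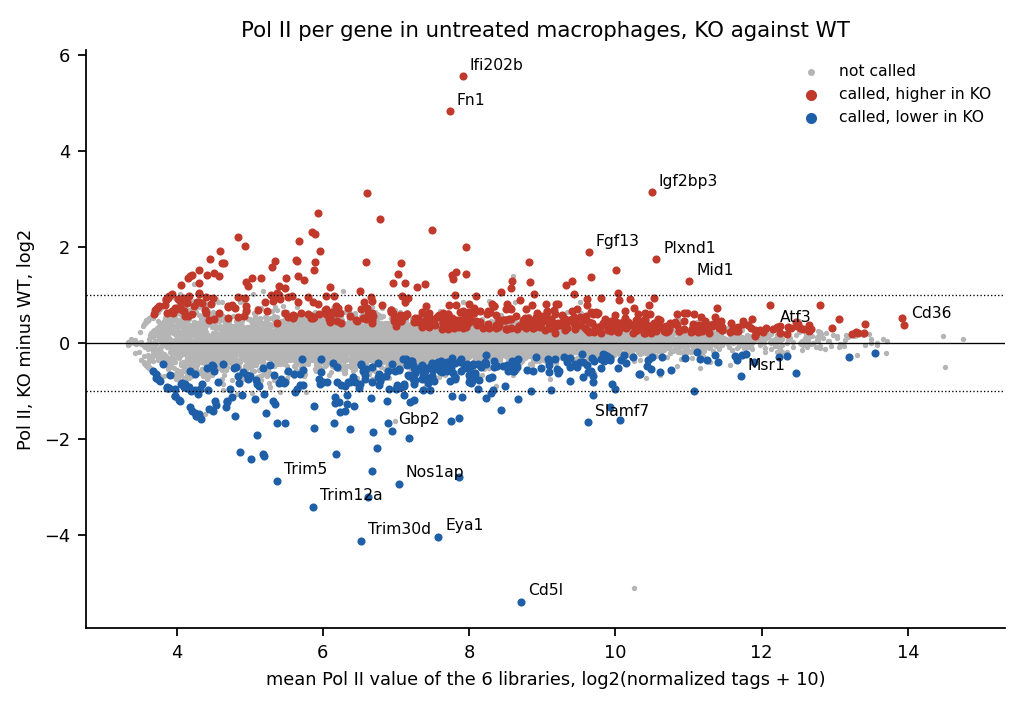
Each point is 1 of 13219 genes; the x axis is the mean Pol II value of the 6 untreated libraries and the y axis the change from WT to KO, both as log2 of normalized tags + 10, with dotted lines at a 2-fold change. Most genes lie near 0, and Cd5l, Trim30d and Eya1 below and Ifi202b and Fn1 above stand far from them.

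Nr4a1 itself (ENSMUSG00000023034, chr15), the gene that was deleted, had 87.8, 76.1 and 70.2 normalized tags in the KO libraries and 189, 188 and 208 in the WT libraries. The groups did not overlap, and the log2 change was -1.22 (SE 0.17, adjusted p = 1.2e-04). Pol II was lower but not absent over the deleted gene, and the value does not show which part of the gene remained. With a pseudocount of 1 in place of 10 the change was -1.32 and did not pass (adjusted p = 0.19). Within 500 bp of the gene start it was -0.67 (adjusted p = 0.04). The paralogues Nr4a2 and Nr4a3, which bind the same DNA sequence, did not pass the test, with log2 changes of 0.04 (95% confidence interval -0.17 to 0.24) and 0.23 (-0.30 to 0.75).

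The deepest fall at the pseudocount of 10 was at Cd5l, which encodes the secreted macrophage protein CD5L (also called AIM). This protein is known for keeping macrophages alive and for binding lipids. With a pseudocount of 1 Trim30d (-7.36) and Trim12a (-6.60), both listed at 0 in the KO, fell further than Cd5l (-6.31). KO libraries had 7.19, 14.6 and 7.32 normalized tags at Cd5l and WT libraries 727, 849 and 851, so the lowest WT value lay far above the highest KO value. The log2 change was -5.39 (SE 0.13, adjusted p = 2.0e-14), on the log2(normalized tags + 10) scale that is used throughout and that understates changes of low genes. Cd5l lies at chr3:87357881-87371073 in the mm10 build. Its neighbour Fcrl1, an Fc receptor-like gene of B cells, fell as well, from 148, 179.9 and 174 to 9.36, 7.67 and 10.3 normalized tags (adjusted p = 2.3e-08). Etv3, an ETS repressor on the same stretch, rose, with a log2 change of 0.63 (adjusted p = 3.0e-05).

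Tripartite motif (Trim) genes of the chromosome 7 cluster, several of which restrict retroviruses, included genes with no Pol II region left in the KO. Trim30d was listed at 0 in all 3 KO libraries, against 143, 175 and 175 normalized tags in the WT (adjusted p = 1.9e-11). Trim12a (WT 78.0, 108 and 104, adjusted p = 7.2e-13) and Trim5 (WT 56.7, 72.5 and 60.2, adjusted p = 1.3e-10) were also listed at 0 in every KO library. A value of 0 means that no region passed the authors' search in that gene, not that no read fell there. Trim34b went the other way, with 75.7, 68.7 and 88.0 in the KO and 19.1, 21.1 and 20.7 in the WT (log2 change 1.52, adjusted p = 2.9e-06), and Trim12c rose by 0.68 (adjusted p = 1.0e-04, -0.72 without input regions). These paralogues are close in sequence, and how reads that fit more than 1 of them were placed is not given for single genes in the sources used here, so a value of 1 paralogue may hold reads of another.

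Among the other large falls, Eya1, a phosphatase and transcriptional co-activator of organ development, went from 301, 380.3 and 369 to 11.2, 20.6 and 6.13 normalized tags (log2 change -4.03, adjusted p = 3.9e-08). Nos1ap, an adaptor of neuronal nitric oxide synthase, went from 179, 249 and 240.2 to 23.7, 16.6 and 20.5 (-2.93, adjusted p = 7.0e-09). Npy, the neuropeptide Y gene, had 5.25, 22.8 and 18.2 in the KO and 113, 113 and 103 in the WT (-2.31, adjusted p = 7.2e-06, 0.73 without input regions). In each of these 3 genes all KO values lay well below all WT values. Ank2, which encodes an ankyrin that anchors membrane proteins to the cytoskeleton, fell by a log2 of 2.19, Gm4070 by 2.35 and Dppa3 by 2.67, and Mpig6b changed by -2.80 (1.71 without input regions). Over 2-fold lower genes included 17 that were listed at 0 in all KO libraries, and 10 of the higher genes were listed at 0 in all WT libraries. Sh3d19, Nptx1 and C9 were listed at 0 in the 3 KO libraries and above 0 in the 3 WT libraries. The window of Mpig6b also covers parts of Ddah2 and Ly6g6c.

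The largest rise was at Ifi202b, a cytosolic DNA-binding protein of the interferon-inducible Ifi200 family. No WT library had a region at Ifi202b, while the KO libraries had 442, 430.4 and 518 normalized tags (adjusted p = 2.6e-13). The input libraries held 400.1 normalized tags at Ifi202b in the KO and 90.1 in the WT, and the part of the input in this rise was not tested. Fn1, the gene of the extracellular matrix protein fibronectin, rose from 0, 5.67 and 8.43 to 467, 428 and 308 (log2 change 4.83, adjusted p = 2.1e-10). Igf2bp3, an RNA-binding protein of fetal and transformed cells, had 1536, 2731 and 3536 in the KO and 257, 269.9 and 282 in the WT (3.14, adjusted p = 2.7e-09). The change at Igf2bp3 was -1.60 without input regions, and within 500 bp of the gene start it was 0.45 and did not pass (adjusted p = 0.14). All 3 genes were without overlap between genotypes, and Igf2bp3 varied by more than 2-fold among its own KO libraries.

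Vcam1, an adhesion molecule for leukocytes, rose from 4.98, 15.7 and 6.52 to 77.6, 90.2 and 50.8 normalized tags (2.13, adjusted p = 4.3e-07). Plxnd1, a semaphorin receptor, stood at 2302, 2292 and 2353 in the KO and 631, 731 and 686 in the WT (1.75, adjusted p = 7.0e-13), and H1foo beside it rose by 2.71. The changes at Plxnd1 and H1foo were -5.00 and -0.69 without input regions. Fgf13 rose by 1.89, Gfra2, a receptor for the growth factor neurturin, by 2.36, Tnfrsf10b, a receptor for the death ligand TRAIL, by 2.32 and B3galnt1 by 2.00. Ide, the insulin-degrading enzyme, rose by 2.59, but at this gene the KO input library also held 598 normalized tags against 22.4 in the WT input, and the part of the input in this rise was not tested. Among called genes whose KO and WT values did not overlap, the 30 with the largest changes, 15 each way, stayed called when any 1 of the 6 libraries was left out. They were chosen on these same libraries, which favours such a result. Of all 157 genes over 2-fold, 130 stayed called in all 6 of these fits. Mmp1b, a matrix metalloproteinase gene left out of these 30 because its values overlapped, had 345, 176 and 0 normalized tags in the KO and was listed at 0 in the WT (adjusted p = 0.018), and it lost the call in 5 of those 6 fits, all but the one without KO replicate 3. The window of Mmp1b overlaps that of Mmp12, so its tags may belong in part to Mmp12.

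**Figure D2:**
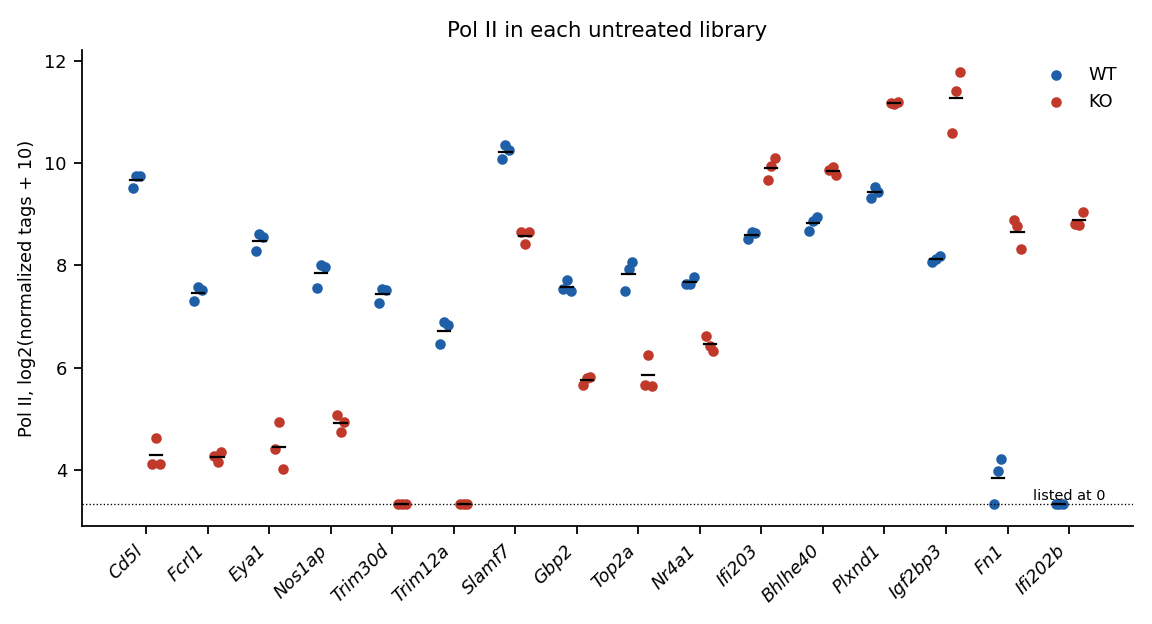
Points are single untreated libraries, 3 WT in blue and 3 KO in red for each gene, bars are group means, and the y axis is Pol II as log2 of normalized tags + 10; the dotted line marks genes listed at 0. KO and WT values do not overlap at any of the 16 genes, and Trim30d and Trim12a in the KO and Ifi202b in the WT sit on the line of 0.

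The promoters of falling genes are shown because 10 of the 63 genes over 2-fold lower in the KO that have a RefSeq promoter held the core of the interferon-stimulated response element (ISRE), searched as GAAA, any 2 bases and GAAA, in the 250 bases before their start on either strand (15.9%). The same letters were found at 3.57% of 56 genes over 2-fold higher, at 3.40% of the 10281 tested genes with a promoter and at 2.98% of all 32851 RefSeq promoters (GRCm38.p6). The 10 were Gbp2, Gbp5, Cxcl10, Ifit1bl1, Ifi206, Slamf8, Trim5, Trim30d, Mroh2a and E2f8, a transcription factor of the cell cycle. Trim5 and Trim30d belong to the same chromosome 7 cluster, and Gbp2 and Gbp5 lie close together on chromosome 3. Slamf8 and Ifi206 lie in 1 stretch of chromosome 1 described below. The 10 are therefore not 10 independent promoters. TGANTCA, the AP-1 site, was in 14.3% of the lower and 16.1% of the higher genes, against 5.59% of tested genes and 6.75% of all promoters. Over all called genes with a promoter, 271 lower and 423 higher, the shares lay closer to those of tested genes, at 8.86% and 5.20% for the ISRE and 8.12% and 8.98% for TGANTCA. AAAGGTCA, the NBRE that Nur77 binds as a monomer, was in none of the 63 and 56, against 1.20% of tested genes and 1.34% of all promoters, and in 0.37% of all genes called lower and 1.65% of those called higher. A match is a description of the letters and not evidence of binding. In the sequences below, written 5′ to 3′ on the strand of the gene and ending at the base before the RefSeq start, capitals mark the ISRE letters or their reverse complement and, in Gbp2 and Cxcl10, also TGANTCA; the marked runs do not overlap. Cd5l, the deepest fall at the pseudocount of 10, is shown as a gene without a match to any of the 3 motifs. Positions are Trim30d chr7:104507850-104508099 (minus strand), Slamf8 chr1:172590569-172590818 (minus), Gbp2 chr3:142620413-142620662 (plus), Cxcl10 chr5:92348890-92349139 (minus) and Cd5l chr3:87357631-87357880 (plus).
Trim30d: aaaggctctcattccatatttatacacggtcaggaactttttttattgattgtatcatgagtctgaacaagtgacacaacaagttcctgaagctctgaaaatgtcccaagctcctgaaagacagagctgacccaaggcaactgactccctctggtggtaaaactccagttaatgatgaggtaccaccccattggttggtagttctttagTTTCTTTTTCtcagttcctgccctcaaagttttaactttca
Slamf8: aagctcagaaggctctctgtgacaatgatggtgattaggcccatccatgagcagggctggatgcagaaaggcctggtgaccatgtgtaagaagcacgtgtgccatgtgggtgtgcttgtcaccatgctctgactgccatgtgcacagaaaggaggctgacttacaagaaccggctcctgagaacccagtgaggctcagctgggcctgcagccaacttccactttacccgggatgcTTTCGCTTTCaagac
Gbp2: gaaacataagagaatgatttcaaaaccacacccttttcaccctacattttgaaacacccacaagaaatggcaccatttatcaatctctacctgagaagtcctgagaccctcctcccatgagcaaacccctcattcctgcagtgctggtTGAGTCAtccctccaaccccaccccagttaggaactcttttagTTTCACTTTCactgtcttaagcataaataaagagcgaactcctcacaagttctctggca
Cxcl10: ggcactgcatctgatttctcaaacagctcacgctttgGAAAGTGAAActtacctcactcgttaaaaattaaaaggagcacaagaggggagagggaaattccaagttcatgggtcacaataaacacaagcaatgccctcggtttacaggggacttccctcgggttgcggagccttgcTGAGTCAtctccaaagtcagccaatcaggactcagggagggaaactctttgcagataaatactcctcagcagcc
Cd5l: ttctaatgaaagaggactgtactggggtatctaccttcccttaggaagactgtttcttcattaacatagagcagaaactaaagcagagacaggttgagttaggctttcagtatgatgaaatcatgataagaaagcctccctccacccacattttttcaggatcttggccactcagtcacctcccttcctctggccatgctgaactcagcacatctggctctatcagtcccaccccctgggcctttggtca

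Genes of the interferon response fell more often than they rose. Of 25 tested members of the list, 8 were lower and 1 was higher in the KO, with a median log2 change of -0.25, beside 2.72% lower and 4.18% higher and a median of 0.04 over all tested genes. Gbp2, a guanylate-binding GTPase of cell-autonomous immunity whose promoter is printed above, had 40.6, 45.3 and 46.2 normalized tags in the KO and 175, 199.6 and 172 in the WT (-1.83, adjusted p = 1.7e-12). Gbp5 fell by a log2 of 1.65 and Cxcl10, a chemokine for T cells, by 1.67. Without input regions Cxcl10 instead rose by 0.63. The remaining falls were smaller, at -0.59 for Ifit1, -0.45 for Usp18, -0.44 for Oas2, -0.42 for Oas3 and -0.38 for Ifit3. Oasl1, which represses translation of Irf7, was the member that rose (0.53, adjusted p = 0.0018). Without WT replicate 1 the list had 11 lower and 1 higher. Counted only within 500 bp of gene starts the median was near 0, and 2 members were lower and 1 higher. Ifit3, Oas2, Oas3 and Usp18 each lost the call in 2 to 4 of the 6 fits that left 1 library out (adjusted p up to 0.16), KO replicate 3 being among those libraries for all 4.

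Early response genes of LPS were also tested before any LPS was given. Of 22 tested, 8 were lower and 2 higher, beside 2.72% and 4.18% of all tested genes, with a median of -0.21. Lower were the chemokines Cxcl1, listed at 0 in the KO and at 24.0, 6.67 and 18.4 in the WT, Cxcl2 (-0.70), Ccl7 (-0.78) and Ccl3 (-0.54), the cytokines Il10 (-0.89), Il1b (-0.49) and Tnf (-0.34), and Nfkbia (-0.23), the inhibitor of NF-κB. Tnf itself had 1267, 1325 and 1083 normalized tags in the KO and 1477, 1602 and 1574 in the WT, so the groups were apart by a small margin. Higher were Tnfaip3, a brake on NF-κB (0.26), and the transcription factor Egr2 (0.45). Tnf, Nfkbia, Il1b and Tnfaip3 each lost the call in at least 4 of the 6 fits that left 1 library out, with the highest adjusted p at 0.19, Egr2 lost it without KO replicate 1, and the other 5 kept it. Without WT replicate 1 the list had 6 lower and 1 higher, and within 500 bp of gene starts 3 lower and none higher. Il6 was listed at 0 in all 6 libraries.

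AP-1 genes were tested as a list because the study is about AP-1. Of 17 members 4 passed, 2 in each direction, beside 6.89% of all tested genes. Atf3, a stress-induced repressor, had 5087, 5074 and 4965 normalized tags in the KO and 3714, 4318 and 4225 in the WT (0.31, adjusted p = 0.0011), and Jund rose by 0.34 (adjusted p = 0.015). Atf6, the sensor of unfolded proteins in the endoplasmic reticulum, fell from 1123, 1371 and 1287 to 639.6, 641 and 818 (-0.84, adjusted p = 2.1e-04), and Jdp2, which represses AP-1, by a log2 of 0.34 (adjusted p = 0.017). At the gene starts Atf6 and Jdp2 had changes of 0.39 and 0.33 in the opposite direction, and there 3 members of the list were higher and none lower. The core members of the complex did not pass, with Jun, the classical AP-1 subunit, at -0.18 (95% confidence interval -0.32 to -0.03), Junb at 0.14 (-0.05 to 0.33), Fos at 0.04 (-0.20 to 0.28) and Fosl2 at 0.12 (-0.04 to 0.29). Fosb, Fosl1, Atf2, Atf4, Atf5, Atf7, Batf, Batf2 and Batf3 had log2 changes from -0.18 to 0.43 and did not pass either. The median of the list was 0.09. Jund lost its call without KO replicate 1 or 2, and Jdp2 in 4 of the 6 such fits (adjusted p up to 0.15).

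Cell cycle genes that passed the test were lower in the KO. Of 25 tested, 7 passed and all 7 were lower, beside 2.72% of all tested genes lower, and the median was -0.46 with 22 of the 25 estimates below 0. Top2a, the DNA topoisomerase of dividing cells, had 40.7, 66.3 and 39.9 normalized tags in the KO and 171, 233 and 256 in the WT (-1.97, adjusted p = 4.0e-04). With a pseudocount of 1 the change at Top2a was -2.16 and did not pass (adjusted p = 0.21). Of the helicase that unwinds DNA for replication, 3 subunits fell, Mcm5 by a log2 of 0.96, Mcm4 by 0.92 and Mcm6 by 0.76. Mcm6 was tight within each genotype, at 203, 196 and 198 against 338, 344 and 348. The cyclins Ccnd2 (-0.70, 0.22 without input regions) and Ccna2 (-0.50) and the proliferation marker Mki67 (-0.52, 0.96 without input regions) were lower too. In bulk samples fewer dividing cells and less Pol II per cell cannot be told apart. Within 500 bp of gene starts the median was -0.03 and only 1 member passed. Mcm4 and Ccna2 lost the call in at least 4 of the 6 fits without 1 library and Mki67 without KO replicate 3 (adjusted p up to 0.15), while 9 members were lower without WT replicate 1.

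Genes of cholesterol handling, of uptake of dying cells and of macrophage metabolism and lineage were tested next, each list beside 6.89% of all tested genes called, 4.18% higher and 2.72% lower. Among 19 tested genes of the liver X receptors and cholesterol, 3 were higher and none lower, and no member passed within 500 bp of gene starts. These were the cholesterol exporters Abca1 (0.21) and Abcg1 (0.31) and the scavenger receptor Cd36 (0.39, adjusted p = 0.0015), which had 17584, 17221 and 19035 normalized tags in the KO and 12424, 14331 and 14421 in the WT. Abca1 lost the call in 5 of the 6 fits without 1 library (adjusted p up to 0.20) and Abcg1 without KO replicate 3 (0.050). Of 12 efferocytosis and scavenger genes, Mertk, a receptor for apoptotic cells, rose by 0.47 (adjusted p = 4.2e-05, -1.66 without input regions) besides Cd36. Msr1, the class A scavenger receptor, fell from 3646, 4423 and 4386 to 2528, 2479 and 2695 (-0.69, adjusted p = 7.9e-07), Itgav by a log2 of 0.51 and Stab1 by 0.26. Without input regions Itgav instead rose by 0.54. Stab1 and Itgav lost the call in at least 3 of those fits. Of 21 citric acid cycle and itaconate genes, Acod1, which makes itaconate, fell from 121, 125 and 106 to 35.1, 14.5 and 35.7 (-1.78, adjusted p = 4.5e-04). Sdhc fell by 0.43 and Idh1 rose by 0.28, and both lost the call in at least 3 of those fits. Of 18 lineage factors of macrophages only Csf2ra passed (0.30, lost without KO replicate 1, KO replicate 2 or WT replicate 3 with an adjusted p up to 0.10), and of 7 reference genes none did. Within 500 bp of gene starts the efferocytosis list had 1 gene higher and 1 lower, and no citric acid cycle gene passed.

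A list of 45 genes that LPS induced at 1 h in RAW264.7 cells, a mouse macrophage line, and that Nur77 overexpression lowered there, was taken from the study and so was chosen on other cells. Of its 33 members tested here 5 were higher and 3 lower, beside 4.18% and 2.72% of all tested genes, and their median was 0.10, beside 0.04. Bhlhe40, a transcription factor that represses Il10, had 919.7, 969 and 862 normalized tags in the KO and 396, 458 and 481 in the WT (1.03, adjusted p = 4.6e-07). Lrrc32, which holds latent transforming growth factor β at the cell surface, rose by 0.81, Tnfrsf1b by 0.28 and Tsc22d1 by 0.26, the last of which lost the call in 5 of the 6 fits without 1 library. Atf3, given above, was the fifth. Irf1 (-0.60), Tgm2 (-0.57) and Ccl7 were lower. Within 500 bp of gene starts the list had 2 higher and 2 lower.

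**Figure D3:**
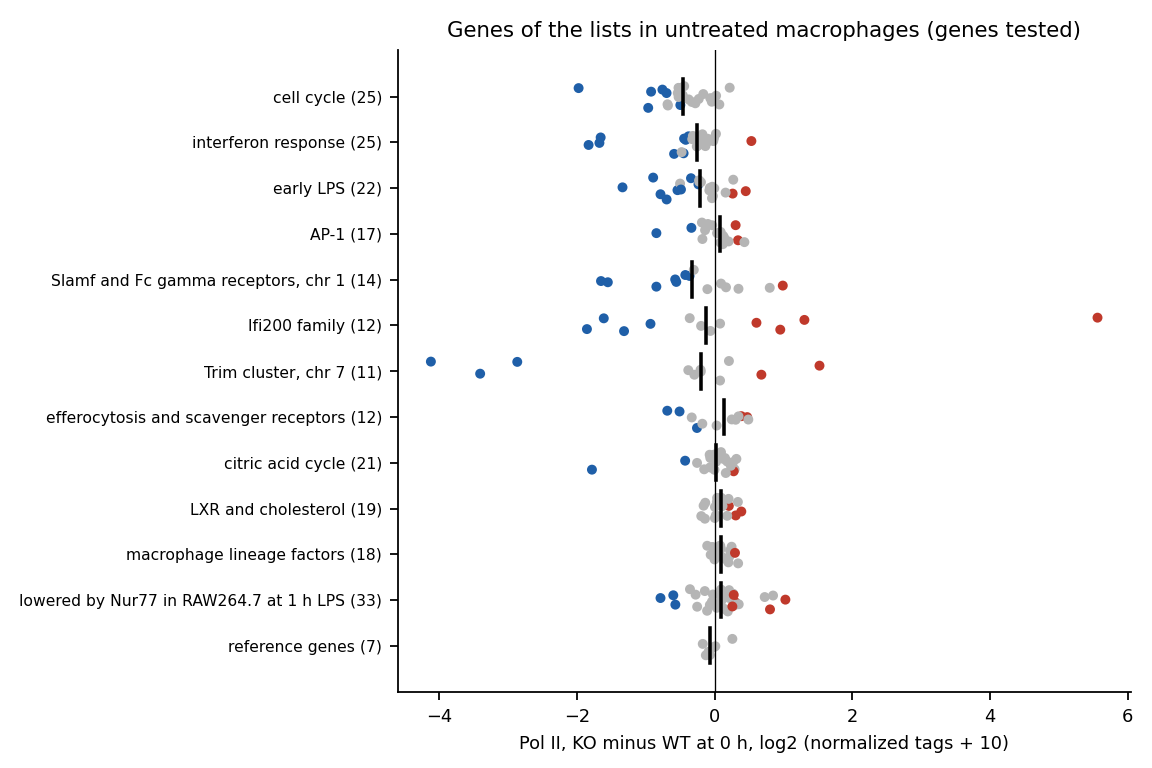
Each point is a tested gene of the list named at the left, placed by its Pol II change from WT to KO at 0 h; red and blue mark genes called higher and lower, grey genes not called, black bars the median, and the number of genes tested stands in parentheses. The medians lie at -0.46 for cell cycle genes, -0.25 for interferon response genes and -0.07 for reference genes.

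Genes that changed over 2-fold were next placed along the chromosomes. Neighbouring called genes no more than 1 Mb apart were joined, and a run of at least 3 was taken as a segment. The 157 genes gave 9 segments with 47 genes (29.9%), 23 higher and 24 lower. The number of segments was 9 to 14 with 1 library left out. It was 2 within 500 bp of gene starts and 4 among genes found in all 6 libraries. In the window from 500 bp after the start to 500 bp past the end it was 17. Of the 391 stretches of 5 Mb with at least 10 tested genes, 303 held none of the 157.

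The longest segment lay on chromosome 1, from Uap1 to Ifi202b (chr1:170141938-173982744). Of 75 tested genes inside it 36 (48.0%) were called, 28 lower and 8 higher, and 17 (22.7%) changed over 2-fold. The bounds of a segment were drawn from the over 2-fold calls themselves, so such shares are high by construction here and in the segments below, and they are given as a description only. Slamf genes, cell surface receptors of leukocytes, lie in its middle. Slamf7 fell from 1069.7, 1298 and 1209 to 393, 332 and 395 normalized tags (-1.65, adjusted p = 6.9e-10) and Slamf8, which tempers the macrophage oxidative burst, from 320.3, 342 and 343 to 102, 112 and 110.1 (-1.55, adjusted p = 3.4e-09). The change at Slamf8 was 1.93 without input regions. Cd244a (-0.57), Ly9 (-0.56) and Slamf9 (-0.42) fell less. Of the Fc gamma receptors, which bind antibody complexes, Fcgr4 (-0.84) and the inhibitory Fcgr2b (-0.36, 1.21 without input regions) were lower, and Fcrla was higher (0.99). In this list of Slamf and Fc receptor genes 7 of 14 tested were lower and 1 was higher, beside 2.72% and 4.18% of all tested genes, and within 500 bp of gene starts 2 were lower and 2 higher. Slamf9 lost the call without KO replicate 2, WT replicate 2 or WT replicate 3 (adjusted p up to 0.083), and Fcgr2b without KO replicate 1, WT replicate 2 or WT replicate 3 (up to 0.12).

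Members of the Ifi200 family at the far end of the segment went in both directions, 4 higher and 4 lower of 12 tested, beside 4.18% and 2.72% of all tested genes, and 5 higher and 2 lower within 500 bp of gene starts. Beside Ifi202b, Ifi203 rose, with 809, 974 and 1096 normalized tags in the KO and 356, 396 and 388 in the WT (1.30, adjusted p = 2.2e-06) beside 336 in the KO input and 108 in the WT input, as did Mndal (0.61, -2.32 without input regions), whose window overlaps that of Ifi203, and Ifi214, which was listed at 0 in the WT. Ifi209 fell from 125, 181 and 147 to 41.6, 31.7 and 29.7 (-1.85, adjusted p = 1.5e-08), Ifi204 by a log2 of 1.61 and Ifi206 by 1.31, and Ifi213 was listed at 0 in the KO. Ifi206 lost the call when any 1 WT library was left out (adjusted p up to 0.16). At the gene start Ifi204 and Ifi209 had changes of 0.15 and 0.12. Members of this family are near-identical over long stretches, so their reads may be shared between them.

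Further genes of the chromosome 1 segment fell, among them Igsf9 (-1.67), Vsig8 (-1.41, 2.10 without input regions), Sh2d1b1 (-1.30), Uap1 (-1.12), Tstd1 (-1.08, 0.74 without input regions) and Cfap45 (-1.08, 0.97 without input regions). Nos1ap (-2.93), Atf6 (-0.84) and Sdhc (-0.43), given above, also lie in this segment. Kcnj9, a potassium channel, rose by 1.71, and Vangl2, a planar cell polarity gene, was listed at 0 in the WT and at 17.7, 21.5 and 11.9 in the KO. Tstd1 and Cfap45 lost the call in at least 4 of the 6 fits without 1 library, with the highest adjusted p at 0.17.

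Some segments moved in 1 direction. From Erp27 to Dera on chromosome 6, 7 of 8 tested genes were called and all 7 were lower. Ptpro, a receptor tyrosine phosphatase of macrophages, fell from 1224, 1478 and 1453 to 533, 545 and 565 normalized tags (-1.32, adjusted p = 2.3e-08). Erp27 fell by a log2 of 1.15, Dera by 1.14 and Strap by 1.10, and Rerg was listed at 0 in the KO. Without input regions Erp27 and Strap instead rose, by 2.43 and 0.17. From Ufsp2 to Snx25 on chromosome 8, all 4 tested genes were higher, Ufsp2 by 1.20, Ankrd37 by 1.30, Lrp2bp by 1.34 and Snx25 by 1.06, where the windows of the first 3 overlap in turn and so share tags. Snx25 lost the call without WT replicate 2. On chromosome 4 the tumour necrosis factor ligands Tnfsf15 (1.27) and Tnfsf8 (1.48) and the matrix gene Tnc (1.41) were higher, which are the 3 tested genes there. Tnfsf8 had 272, 334 and 358 in the KO and 122, 85.0 and 121 in the WT.

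On chromosome 14 Slc25a37 (1.32), an iron importer of mitochondria, Tnfrsf10b, Sorbs3 (1.91) and Gfra2 rose over 2-fold among 25 tested genes, of which 8 were called. The olfactory receptor genes Olfr112 (2.29), Olfr113 (1.74) and Olfr115 rose on chromosome 17, as did Mid1 (1.29, adjusted p = 9.0e-11), Amelx (1.17) and Gm21887 (2.03) on the X chromosome. Mid1, a ubiquitin ligase, stood at 3007, 2844 and 2904 in the KO and 1070.2, 1275 and 1229 in the WT, and the input held 513 normalized tags there in the KO and 139 in the WT, whose part in the rise was not tested. Amelx lost the call without KO replicate 3 or WT replicate 3. At the second segment of chromosome 6, Tex52 (-1.53), Gm44596 (-1.92) and Nrip2, listed at 0 in the KO, were lower, and Klrb1a, listed at 0 in the WT, was higher. The window of Gm44596 overlaps those of Tex52 and Nrip2. That of Tex52 also overlaps Foxm1, and that of Nrip2 also overlaps Itfg2. The remaining segment is that of the Trim genes, in which 5 of 8 tested genes were called.

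The targeted gene lies on chromosome 15. Within 5 Mb of Nr4a1 on either side, 12 of 112 other tested genes (10.7%) were called, 8 higher and 4 lower, and 2 changed over 2-fold, beside 6.89% and 1.19% of all genes. On the whole of chromosome 15, 50 of 497 tested genes (10.1%) were called and 8 (1.61%) changed over 2-fold, so the share called near Nr4a1 was close to that of its chromosome. Pou6f1, a POU domain factor, had 247, 239 and 193 normalized tags in the KO and 85.9, 99.9 and 85.8 in the WT (1.23, adjusted p = 1.2e-06). C1ql4 was listed at 0 in the KO and at 18.3, 15.8 and 21.6 in the WT (adjusted p = 1.0e-07). Its window overlaps that of Troap (-0.58), which was also called lower, so these genes may share tags.

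**Figure D4:**
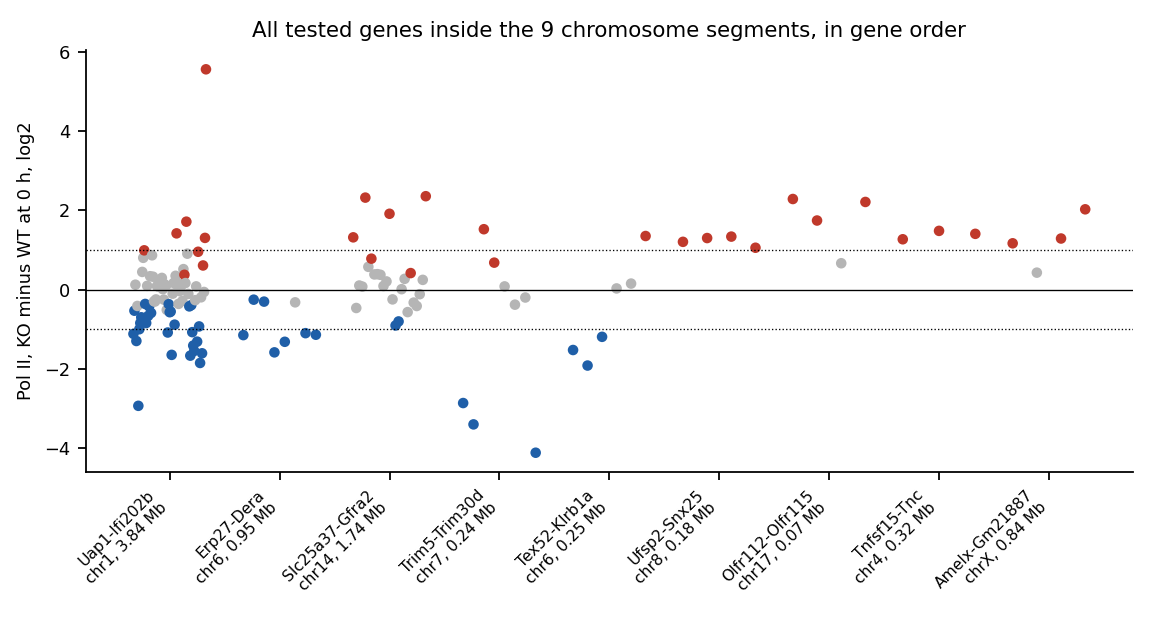
Each point is a tested gene inside 1 of the 9 segments, in gene order from left to right within the segment, and the y axis is the Pol II change from WT to KO at 0 h (log2); red is called higher, blue called lower, grey not called, and dotted lines mark 2-fold. The segments Erp27-Dera and Ufsp2-Snx25 hold calls in 1 direction, and the chromosome 1 segment holds 28 lower and 8 higher.

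The same genes were then read in the libraries at 1 h and 18 h. Their values do not enter the 0 h means, but 1 fit over all 18 Pol II libraries gave every time point its estimate of spread, and fitted on the 6 untreated libraries alone 442 genes passed at 0 h. After 1 h of LPS, 113 of the 157 genes could be tested and 78 were called in the direction of 0 h, 44 of 58 higher genes and 34 of 55 lower genes. At that time 45.6% of all tested genes were called, 38.1% higher and 7.49% lower in the KO. The higher genes' count of 44 of 58 therefore stands beside a background of 38.1%, and the lower genes' 34 of 55 beside 7.49%. After 18 h of LPS, 62 of 114 were called in the same direction, 31 of 54 higher and 31 of 60 lower, beside 7.56% and 13.4% of all genes. At both times 44 genes were called in the direction of 0 h, 24 of them higher, and 22 of the 44 lie in the segments. The share of all tested genes called at both times was not counted, so the 44 are given without a background. In the opposite direction, 4 genes were called at 1 h and 7 at 18 h.

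Cd5l, Trim5, Trim12a and Trim30d were called lower at each time. Cd5l was listed at 0 in the KO at 1 h and 18 h, while the WT held 212 ± 20.2 (SD, n = 3) and 724 ± 39.8 normalized tags. Trim12a was listed at 0 in the KO at both times, with 341 ± 0.355 and 1391 ± 34.2 in the WT. Trim30d was far apart between genotypes at 1 h and closer at 18 h. At 1 h it had 5.80 ± 5.08 in the KO and 377 ± 16.8 in the WT, and at 18 h 1896 ± 34.7 and 2867 ± 16.1, a log2 change of -0.59. Ifi202b reached 1272 ± 19.0 in the KO at 1 h and 3623 ± 36.0 at 18 h, against 61.0 ± 23.1 and 0 in the WT.

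Fn1 and Igf2bp3, among the largest rises at 0 h, were not called at every later time. Fn1 was 653 ± 60.6 in the KO and 2.84 ± 4.91 in the WT at 1 h and was listed at 0 in all 6 libraries at 18 h. Igf2bp3 did not pass the test at either later time (log2 change 0.39 at 1 h and -0.29 at 18 h), when the KO held 271 ± 1.26 and 5169 ± 155 normalized tags and the WT 205 ± 14.3 and 6339 ± 227. Top2a (-0.75 and 0.21) and Mcm6 (-0.33 and 0.14) did not pass at 1 h or 18 h. The difference of the genotype effect between times was not tested for these genes. Bhlhe40 was higher at each time (0.71 at 1 h and 0.67 at 18 h).

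H3K27ac, an acetylation of histone H3 found at active promoters and enhancers, was read within 2500 bp of gene starts in the matching untreated libraries, which held 35.0 to 38.8 M tags in the KO and 21.4 to 23.1 M in the WT. The part of this depth difference in the result was not tested. Of 105 members with a value, 25 were called in the direction of Pol II and none in the other, 8 higher and 17 lower, beside 0.771% of all tested genes called, 0.466% higher and 0.305% lower. With the Pol II set and the mark refitted together, the number was 53 without KO replicate 1, 61 on the untreated libraries alone and 12 among genes found in all 6 libraries. At Cd5l the mark was 26.1 ± 9.28 normalized tags in the KO and 199.9 ± 23.3 in the WT, and at Eya1 42.9 ± 2.87 and 154 ± 6.07. Among the called genes, Trim12a, Ifi206, Cysltr2, Gm4070 and Olfml2b had the mark in the WT and were listed at 0 for it in the KO, and Ifi202b and Fn1 had it in the KO only. At Ifi202b the KO held 198 ± 28.5, where the KO input over the gene's Pol II window was 400.1. At Slamf8, Gbp2, Cxcl10 and Top2a the mark did not pass the test (-0.31, 0.04, -0.54 and -0.44).

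Pol II at gene starts and over gene bodies gave different pictures. Counted only within 500 bp of the start, 35 of the 101 members with a value were called in the same direction and 19 of them over 2-fold, beside 2.69% and 0.297% of all genes tested in that window. From 500 bp after the start to 500 bp past the end, 144 of 155 were called, beside 6.9% of all genes tested there. Both windows reuse the tags that chose the members. Gbp2, for example, changed by -0.17 at the start and -2.21 over the body, Top2a by -0.33 and -2.53, Plxnd1 by 0.38 and 1.80, and Slamf8 by -0.31 and -1.76. Of the cell cycle and interferon genes given above as lower, Mcm6 (0.25), Mki67 (0.19), Mcm4 (0.088), Usp18 (0.29) and Oas2 (0.054) had start-window changes above 0. At Cd5l (-2.26 and -5.67) and Bhlhe40 (0.94 and 1.03) the change was seen in both windows. A region that crosses a window's edge was shared by overlap, so the start window takes a fraction of a broad region and is not a direct count of paused polymerase.

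Of the 13219 tested genes, 10523 had a region in the KO input and 9060 in the WT input. The KO input exceeded the WT input at 53 of the 77 genes over 2-fold higher in the KO (68.8%) and at 39 of the 80 lower (48.8%), beside 64.9% of all tested genes, and it was more than 2-fold the WT input at 41 of the 77 (53.2%) and 21 of the 80 (26.2%), beside 33.3%. When every Pol II region that overlaps an input region was left out, 133 members still had a value. Of these, 60 were called over 2-fold in the same direction, beside 2.07% of all genes tested under that setting. The setting reuses part of the tags that chose the members. The called genes whose direction turned there are marked above, except Fads2, whose turn is given in the later sections. The part of the input in these values was not tested.

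**Figure D5:**
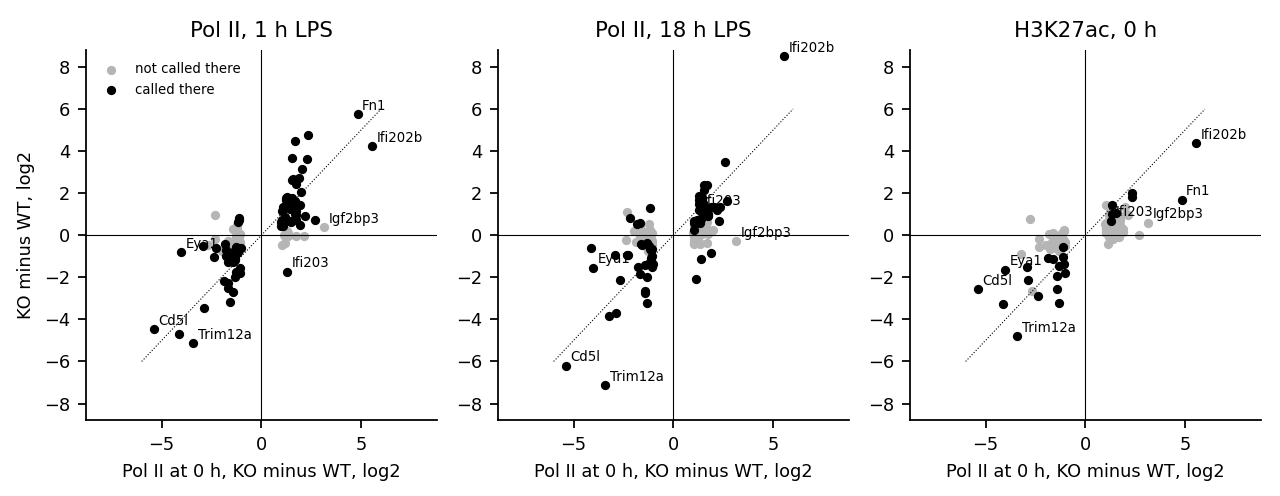
Each point is 1 of the 157 genes, with its Pol II change at 0 h on the x axis and its change at 1 h, at 18 h or for H3K27ac at 0 h on the y axes (log2, KO minus WT); black points were called in those libraries, grey points were not, and the dotted diagonal marks equal change. Of the genes with a value, 78 of 113, 62 of 114 and 25 of 105 were called in the direction of 0 h, with Cd5l, Trim12a and Ifi202b far from 0 in all 3 panels and Igf2bp3 near 0 at 1 h and 18 h.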

How the data were processed

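Pol II ChIP-seq libraries of untreated BMDMs (3 KO, 3 WT) were analysed, with the Pol II libraries at 1 and 18 h, the H3K27ac libraries at 0 h and 1 input library per genotype as further readouts. According to the study's methods, the authors trimmed the reads, aligned them to mm10 with HISAT2 (version 2.1.0 in the submitters' processing notes) and removed duplicates. Per the file headers, the authors then searched each library on its own with HOMER, without an input control, for 500 bp windows past a Poisson p of 0.001, stitched within 1000 bp. The deposited values are a signal per region, tags scaled to a library total of 10 M, so whole tags and per-gene counting intervals are not given. Precision rests on 25.3 to 36.1 M tags per library and on 3 libraries per group.

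Each region's signal was shared by overlap over 21884 GENCODE M21 protein-coding genes with 500 bp on either side, after 67 genes with a shared symbol or on mitochondrial DNA were left out of 21951. On the scale log2(normalized tags + 10), limma 3.58.1 (R 4.3.3, trended variance) was fitted over 18 Pol II libraries in 6 group means, and p-values were adjusted by Benjamini-Hochberg over all 13219 tested genes. Calls needed an adjusted p below 0.05, and over 2-fold calls a log2 change beyond 1 as well. H3K27ac was fitted in the same way within 2500 bp of gene starts. Library totals were compared with two-sided exact permutation tests. Genes were named by a rule: the NR4A genes, the 15 largest rises and falls over 2-fold without overlap, segment genes, called members of the gene lists, all AP-1 genes and cell type markers. Members and lists were chosen with earlier results of these data known, and some list genes are not reported here. Alternatives were the pseudocount, the filter, the window, the scaling, the libraries in the fit, a replicate block, regions that overlap input, the segment gap and leaving out each library. Promoters are from RefSeq (GRCm38.p6).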

Additional observations from a re-analysis of the deposited data

Results flagged for a closer look

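At some of the named genes every library at a later time lay on the other side of the 0 h difference. These reversals were singled out for that reason, and the difference between times was not tested. Over the 157 genes that changed over 2-fold, 7 had every library on the opposite side at 1 h and 14 at 18 h. The same count was not made over all tested genes, so these numbers are a description only.

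Gbp2, lower in the KO at 0 h, held 6619.5 ± 223 normalized tags (SD, n = 3) in the KO and 4509.9 ± 143 in the WT at 18 h. Ifi203, higher at 0 h, held 1349 ± 20.5 in the KO and 4499 ± 199 in the WT at 1 h. Both are interferon-inducible genes. Ccnd2, a cyclin of G1 phase, held 301 ± 36.8 and 86.8 ± 14.1 at 18 h. Ciita, the master regulator of class II antigen presentation genes, held 135 ± 17.7 and 49.9 ± 11.2 at 18 h. Fads2, a fatty acid desaturase, was listed at 0 in the KO and held 33.1 ± 12.2 in the WT at 18 h.

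In the following, the log2 change at the later time stands beside that at 0 h, and where it did not pass the test its adjusted p from limma is given. At 1 h the log2 change was above 0 at Mcm4 (1.07 beside -0.92), C9 (0.97, with the KO listed at 0 at 0 h, adjusted p = 0.079), Atad2 (0.84 beside -1.13), Dera (0.71 beside -1.14), Ciita (0.62 beside -1.17), Nr4a1 (0.36 beside -1.22, adjusted p = 0.093), Mki67 (0.33 beside -0.52), Sdhc (0.31 beside -0.43), Tgm2 (0.27 beside -0.57) and E2f8 (0.26 beside -1.20, adjusted p = 0.29).

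At 1 h the log2 change was below 0 at Ifi203 (-1.73 beside 1.30), Mndal (-0.92 beside 0.61), Egr2 (-0.71 beside 0.45), Mertk (-0.68 beside 0.47), Abcg1 (-0.52 beside 0.31), Trim12c (-0.30 beside 0.68), Tnfaip3 (-0.19 beside 0.26), Oasl1 (-0.18 beside 0.53, adjusted p = 0.14) and Atf3 (-0.16 beside 0.31).

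At 18 h the log2 change was above 0 at Ccnd2 (1.69 beside -0.70), Ciita (1.29 beside -1.17), C9 (1.11, with the KO listed at 0 at 0 h, adjusted p = 0.084), Ank2 (0.84 beside -2.19), Il1b (0.76 beside -0.49), Slamf9 (0.68 beside -0.42), Tgm2 (0.66 beside -0.57), Ifit1 (0.66 beside -0.59), Iigp1 (0.56 beside -1.65), Gbp2 (0.55 beside -1.83), Usp18 (0.40 beside -0.45), Gbp5 (0.39 beside -1.65, adjusted p = 0.076), Cxcl2 (0.35 beside -0.70), Tnf (0.28 beside -0.34) and Ccl3 (0.25 beside -0.54, adjusted p = 0.074).

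At 18 h the log2 change was below 0 at Fads2 (-2.07 beside 1.15), Cecr2 (-0.83 beside 1.91), Tnfrsf1b (-0.54 beside 0.28), Igf2bp3 (-0.29 beside 3.14, adjusted p = 0.27), Idh1 (-0.25 beside 0.28) and Atf3 (-0.17 beside 0.31). The fitted value of Fads2 at 18 h is against a group listed at 0 and is no measure of size, and its 0 h rise, with WT values of 143, 158 and 439 normalized tags, lost the call in 5 of the 6 fits without 1 library (adjusted p up to 0.18), all but that without WT replicate 3. The 0 h rise of Fads2 also turned below 0 within 500 bp of the gene start (-0.16) and without input regions. Ciita, Fads2, Iigp1, Atad2 and E2f8 were named after their values were seen.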

How the results depend on the processing

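Over named genes and alternatives, 2250 values kept direction and side of the threshold, 291 lost the call, 3 gained it and 54 reversed. The 911 calls became 299 in the start window, 1498 after quantile normalization, 442 in a fit of the 6 untreated libraries alone, 293 without regions that overlap an input region, and 584 to 823 with 1 library left out. The 157 genes over 2-fold became 57 with a pseudocount of 50, 101 among genes found in all 6 libraries, 33 in the start window and 160 to 174 with 1 library left out. With the pseudocount of 50, the genes found in all 6 libraries, the start window and the input setting, in that order, those also called at 1 h numbered 37, 43, 13 and 32 (70 to 77 with 1 library left out), those also called at 18 h 32, 35, 14 and 24 (54 to 60), and genes in segments 16, 25, 9 and 30 (44 to 57). For H3K27ac the count was 12 among genes found in all 6 libraries, 15 in the start window, 61 where the Pol II set (145 genes over 2-fold) and the mark were both refitted on the untreated libraries, 15 without input regions and 18 to 53 with 1 library left out, 53 being without KO replicate 1. Higher genes were 75.9% of calls in the start window, 50.1% after quantile normalization, 48.8% without input regions and 41.4% without WT replicate 1. Nr4a1 changed by -1.32 with a pseudocount of 1 (adjusted p = 0.19) and by -1.30 to -1.16 with 1 library left out. The share of tags in regions differed by -0.10 to 4.83 points with 1 library left out, and genes above 0 per library by -59.2 to -0.50. Same-numbered libraries did not deviate together (r = 0.053, -0.024 and 0.045 over 12522 genes), so the numbers do not pair them, and with the replicate block 782 genes were called, 157 over 2-fold. The causes were not tested.

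The direction reversed at these genes, given as log2 changes. Within 500 bp of the start it reversed at Atad2 (0.34), Atf2 (0.39), Atf6 (0.39), Atf7 (0.19), Batf3 (-0.024), E2f8 (0.053), Fads2 (-0.16), Fosl1 (-0.12), Ifi204 (0.15), Ifi209 (0.12), Jdp2 (0.33), Mcm4 (0.088), Mcm6 (0.25), Mki67 (0.19), Oas2 (0.054), Rrm1 (0.19), Sdhc (0.22), Tsc22d1 (-0.025) and Usp18 (0.29). Without regions that overlap an input region it reversed at Atf2 (0.19), Atf5 (-0.30), Atf7 (0.35), Ccnd2 (0.22), Cfap45 (0.97), Cxcl10 (0.63), Erp27 (2.43), Fads2 (-0.34), Fcgr2b (1.21), Fosl1 (-0.15), H1foo (-0.69), Igf2bp3 (-1.60), Itgav (0.54), Mertk (-1.66), Mki67 (0.96), Mndal (-2.32), Mpig6b (1.71), Npy (0.73), Plxnd1 (-5.00), Slamf8 (1.93), Strap (0.17), Trim12c (-0.72), Tstd1 (0.74) and Vsig8 (2.10). After quantile normalization it reversed at Fos (-0.076). With 1 library left out the change crossed 0 at Atf4 (-0.31 to 0.048), Atf7 (-0.12 to 0.023), Batf2 (-0.090 to 0.18), Fos (-0.15 to 0.18), Fosb (-0.18 to 0.043), Fosl1 (-0.078 to 0.21) and Nr4a2 (-0.036 to 0.075), none of which was called. The input setting keeps only 5.92% to 7.19% of tags. Depth limits genes near the region threshold, where a value of 0 can stand for reads below it.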

Other observations

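Genes outside the lists that fell in the KO, chosen because their values were low there, included genes of cell division, and being chosen so they add no support to the cell cycle list. Hells, a chromatin remodeller of replicating cells, fell by a log2 of 1.23 (adjusted p = 1.2e-04). Prc1, which bundles spindle microtubules, had 32.8, 25.6 and 39.4 normalized tags in the KO and 79.7, 93.2 and 99.1 in the WT (-1.25, adjusted p = 1.3e-05). Hjurp, the chaperone of the centromeric histone, fell to 90.8, 108 and 88.9 from 285, 346 and 319.6 (-1.63, adjusted p = 6.4e-07).

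Ciita fell at 0 h from 46.0, 29.9 and 31.3 to 5.18, 6.25 and 22.7 normalized tags (-1.17, adjusted p = 0.0027). Iigp1, an interferon-inducible GTPase, fell from 90.2, 122 and 82.6 to 20.4, 25.7 and 26.1 (-1.65, adjusted p = 7.9e-07).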
